A study of Mus musculus with 24 samples.

Results

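Apelin (Apln, transcript uc009tbu.1) was 1 of 63758 transcripts listed in an mRNA sequencing study of the mouse heart after sham surgery. It was chosen because its count fell at 24 h, so its 24 h values are given as a description with no test. The study followed the left ventricular myocardium of 24 adult male C57BL/6 mice, 8 at each of 3 time points, with 1 sample per mouse and no pooling. All mice were anesthetized, the chest was opened on the left, and a suture was passed around the left coronary artery but never tied. The groups differed in the time of harvest after surgery (0 min, 45 min or 24 h), and the chest was closed in the 24 h mice. No group was left without surgery, so the 0 min mice, which had been through anesthesia and thoracotomy, served as the baseline. A heart with no surgery was not analysed here.

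Apelin is a secreted peptide. It is made as a longer precursor that is cut to short active forms, and it acts on a single G protein-coupled receptor, the apelin receptor Aplnr. In the heart and its vessels, the ligand comes mainly from endothelial cells and the receptor is found on endothelial cells and cardiomyocytes. The pair is known for relaxing vessels, for raising the force of contraction and for a role in the growth of new vessels, where the ligand marks endothelial tip cells. Low oxygen and insulin are known to raise the transcript.

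In GENCODE M21 on GRCm38, the assembly also called mm10, Apln lies on the minus strand of chromosome X from 48025146 to 48034853. Its transcript, Apln-201, has 3149 bases in 3 exons. Exon 1 (48034439 to 48034853) holds the first 348 bases, a 5′ untranslated region, and the start of the coding sequence. Exon 2 (48028294 to 48028465) holds the rest of the coding sequence, and exon 3 (48025146 to 48027707) is 3′ untranslated over all of its 2562 bases. Most of the transcript that can be counted thus lies outside the coding sequence. No other annotated gene overlaps Apln, and the nearest neighbours are Ocrl at 59278 bases and Xpnpep2 at 73872 bases. The coding sequence of 234 bases is shown because it encodes the ligand itself. It holds 77 codons and a stop codon, and the capitals mark the last 13 codons before the stop, which encode the short active form apelin-13.
Apln coding sequence, 5′ to 3′: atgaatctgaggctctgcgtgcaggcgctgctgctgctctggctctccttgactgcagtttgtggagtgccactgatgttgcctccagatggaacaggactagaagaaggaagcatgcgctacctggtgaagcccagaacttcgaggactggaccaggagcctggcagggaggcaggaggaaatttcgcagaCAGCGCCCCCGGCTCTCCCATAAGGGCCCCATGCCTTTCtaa

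Counts are given as CPM, scaled to the size of each library by TMM normalization, which corrects for the makeup of each library. Total counts per sample ranged from 9887957 to 14091629, and 8940 transcripts passed the filter on low counts and were tested. Apln passed it with 41 to 451 counts per sample. At 45 min, replicates 6, 7 and 8 had between 12972 and 14353 transcripts detected, against 17114 to 18109 in the other 5 samples of that time point. The fit without these 3 samples was added after seeing the data. Its values are given beside the members of the gene lists below whose 45 min call it changed. Nothing in the labels marks a sequencing batch. The paper reports that surgeons and library pools differed between samples, but the labels assign no sample to either. Labels give the mice as separate animals, so the spread within a time point includes that between mice.

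At 0 min, the normalized count of Apln was 30.1 CPM in the lowest sample, 32.5 at the median and 39.4 in the highest. At 45 min, the lowest was 24.2, the median 28.6 and the highest 41.2 CPM. At 24 h, the 8 mice had 4.13, 11.4, 18.2, 9.68, 6.40, 3.39, 7.13 and 6.07 CPM in the order of their replicate numbers. Every 24 h sample lay below every sample of both earlier time points. The mean and SD over 8 mice were 33.45 ± 3.40 CPM at baseline, 30.05 ± 5.22 CPM after 45 min and 8.30 ± 4.79 CPM after 24 h. The 24 h mean was 24.8% of the 0 min mean, and the 45 min mean was 89.8% of it.

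**Figure D1:**
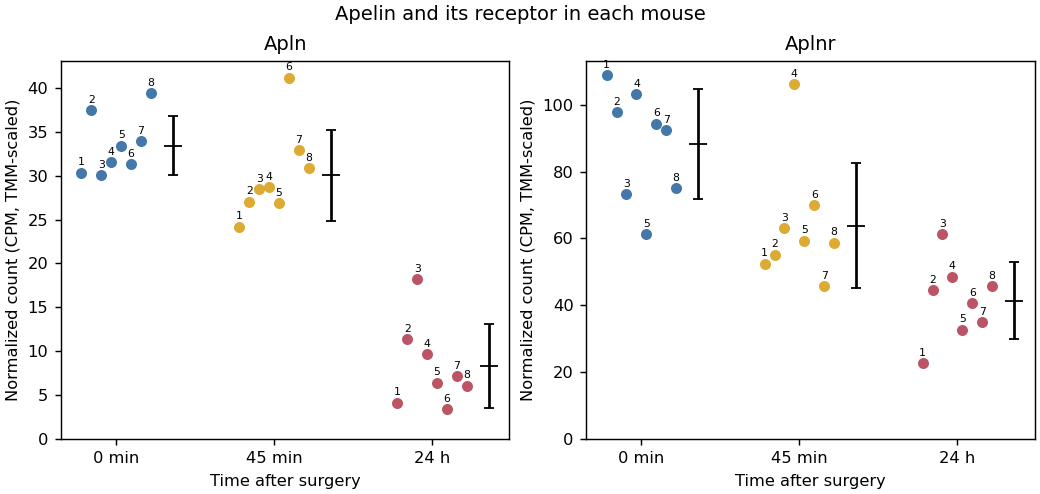
Normalized counts of Apln (left) and Aplnr (right) in CPM for each of the 24 mice, grouped along the axis by time after surgery, with replicate numbers beside the points and bars for the mean ± SD of 8 mice. All 24 h points of Apln, up to 18.2 CPM, lie below the lowest earlier point at 24.2 CPM, while the highest 24 h point of Aplnr, at 61.25 CPM, lies among the 45 min points and just under the lowest 0 min point at 61.3 CPM.

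The log2 fold change of Apln from 0 min to 24 h was -2.01 (standard error 0.24), a 4.03-fold lower level. From 45 min to 24 h it was -1.86 (standard error 0.23), and this comparison shares its 24 h samples with the first. Of the 8940 transcripts tested, 3.24% passed the threshold of 0.05 on adjusted p values as lower at 24 h than at 0 min (quasi-likelihood test of edgeR, Benjamini-Hochberg), and 4.44% were higher. Against 45 min, 4.51% were lower at 24 h and 4.59% were higher. Transcripts with every 24 h sample below every 0 min sample made up 0.649% of those tested, and 0.716% had every 24 h sample below every 45 min sample. With library totals in place of TMM factors, the median over all transcripts moved by 0.19 at 24 h against 0 min and by 0.32 against 45 min on the log2 scale. The share of calls that were higher then went from 57.8% to 81.9% and from 50.4% to 90.3%, while the log2 fold change of Apln was -1.81 and -1.51. These shares describe the contrast in which Apln was chosen and are no test of it.

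Apln was not shown to differ between 45 min and 0 min. The log2 fold change was -0.16 (95% interval -0.62 to 0.31; edgeR, adjusted p = 0.952), a range that reaches from a level well below baseline to one above it. Its width rests on a spread estimated over all 24 samples, and the 24 h mice, which varied most, are among them. A fit that left out the 24 h mice gave -0.14 (edgeR, adjusted p = 0.957). Its standard error was 0.12, against 0.22 with all samples. Of all transcripts tested, 0.246% were lower at 45 min and 0.481% were higher. The 45 min samples fell into 2 sets by the number of transcripts detected. In the 5 samples with more transcripts, Apln lay between 24.2 and 28.7 CPM, and in the 3 samples with fewer between 30.9 and 41.2 CPM. The 0 min samples lay between 30.1 and 39.4 CPM. These sets were formed after seeing the data, and the share of all transcripts that separate in this way was not computed. The ranges are thus a description. Before scaling, the 3 samples had 362, 316 and 276 counts, within the 244 to 380 counts of the other 5. Their TMM factors were 0.729, 0.798 and 0.744, so the split of Apln between the sets depended on that scaling. Without those 3 samples, a choice made after seeing the data, the log2 fold change was -0.32 (edgeR, adjusted p = 0.603). With library totals in place of TMM factors, also chosen after seeing the data, it was -0.31 (edgeR, adjusted p = 0.959). Within 45 min, Pearson's r between TMM-scaled Apln and the number of transcripts detected was -0.787 over the 8 samples, which form separate sets, so no test is given.

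The spread between mice was wider at 24 h than before. The coefficient of variation of Apln was 10.2% at baseline, 17.4% after 45 min and 57.8% after 24 h. Counting error alone, at the mean counts of 371, 325 and 111, would give 5.19%, 5.55% and 9.50%. On the log2 scale, the SD between mice was 0.14, 0.23 and 0.73. The lowest sample, replicate 6 at 24 h, had 41 counts, with an exact Poisson 95% interval from 29.4 to 55.6 that covers counting error only. The highest, replicate 3 at 24 h, had 254 counts. Both belong to the same time point, and their difference is far beyond counting error.

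The receptor, Aplnr (uc008kkb.2), also fell, and by less than the ligand in log2 fold change. Aplnr lies on chromosome 2 from 85136225 to 85139923 as a single exon of 3699 bases, and it encodes the G protein-coupled receptor for apelin. At 0 min, its normalized count was 61.3 CPM in the lowest sample, 93.4 at the median and 109 in the highest. At 45 min, these were 45.7, 59.0 and 106 CPM, and at 24 h they were 22.7, 42.5 and 61.25 CPM. All 8 samples at 24 h lay below the 0 min samples, but the groups nearly touched, at 61.25 against 61.34 CPM, and 5 of 8 lay below all 45 min samples. Means were 88.3 ± 16.5, 63.9 ± 18.6 and 41.4 ± 11.6 CPM (SD, n = 8 each), so that 46.9% of the 0 min level remained at 24 h.

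From 0 min to 24 h, the log2 fold change of Aplnr was -1.09 (standard error 0.18, edgeR, adjusted p = 0.000217). From 45 min to 24 h it was -0.63 (standard error 0.18, edgeR, adjusted p = 0.0289), and this call was lost without replicate 4 at 45 min (-0.51, adjusted p = 0.0540) and with library totals in place of TMM factors (-0.33, adjusted p = 0.284). Without the 3 samples of few transcripts at 45 min it was -0.69 (adjusted p = 0.0381). At 45 min against 0 min it was -0.47 (standard error 0.18), which did not pass the threshold (edgeR, adjusted p = 0.542). Aplnr is in the study's own list of transcripts that changed over time, which was drawn up on these samples, so its test is not independent evidence. Whether ligand and receptor differ in the size of their fall was not tested, because the fall of Apln was used to choose it.

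Per kilobase of transcript, a scale on which levels of different genes can be compared, the receptor stood above the ligand at every time point. The lengths used were those of GENCODE M21, and the annotation release behind the counts is not known, so these values are approximate. Aplnr had, in order of time, 23.9 ± 4.47, 17.3 ± 5.03 and 11.2 ± 3.14 CPM per kilobase (SD, n = 8). Apln had 10.6 ± 1.08, 9.54 ± 1.66 and 2.63 ± 1.52 CPM per kilobase (SD, n = 8). The ratio of ligand to receptor within each sample, in CPM and not per kilobase, was 0.393 ± 0.0972 at baseline, 0.495 ± 0.129 after 45 min and 0.194 ± 0.0663 after 24 h (SD over 8 mice). At 24 h, replicate 6 had the lowest ratio, at 0.0835, and replicate 3 the highest, at 0.297.

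**Figure D2:**
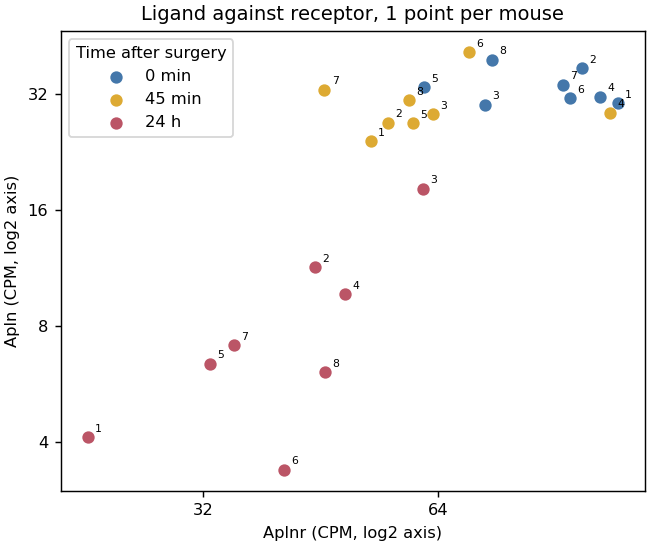
Apln against Aplnr in CPM, both on log2 axes, with 1 point per mouse and its replicate number, and colors for the 3 time points. The 24 h mice lie at the lower left, where replicate 3 has the highest level of both genes, and replicate 4 at 45 min has the highest Aplnr of its time point at 106 CPM.

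Across all 24 samples, Pearson's r between Apln and Aplnr on log2(CPM + 0.5) was 0.793, a value that holds the shift between time points. To take out that shift, deviations from the mean of each time point were compared. Within time points, r was 0.458 and Spearman's rho was 0.341 (permutation test within time points, two-sided, p = 0.0597 and 0.131; adjusted over 4 relations p = 0.239 and 0.262). Leaving out the pair of samples farthest from the median of Aplnr gave an r of 0.419. By time point, r was -0.210 among the 0 min mice, 0.129 among the 45 min mice and 0.711 among the 24 h mice, each over 8 mice and given as a description. Without replicate 3, the 24 h value was 0.53. The other relations within time points, with the number of transcripts detected (r = -0.243, adjusted p = 0.269 by permutation test), with the total count (r = -0.166, adjusted p = 0.640 by permutation test) and with the share of counts of uc012ath.2 (r = -0.0997, adjusted p = 0.640 by permutation test), did not pass the threshold either. The share of this last transcript varied widely, from 0.998% of the counts in replicate 8 at 24 h to 35.2% in replicate 1 at 45 min. Spearman's rho with the number of transcripts detected was -0.428 (permutation test, p = 0.0252, adjusted p = 0.101).

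Other genes of vascular and cardiac tone were compared to place the fall of Apln. Symbols were known only for the 1209 transcripts in the study's list of changes over time, so all members of the lists that follow had been selected on these samples, and their counts are descriptions of those lists. Among the receptors of tone, 9 of 10 were tested, and Bdkrb2, a bradykinin receptor, did not pass the filter. At 24 h against 0 min, 3 were lower and 2 higher, with a median log2 fold change of -0.33 against 0.0033 over all transcripts tested. Ramp1, which joins the calcitonin receptor-like receptor to form the receptor for the dilator CGRP, fell by 1.74 on the log2 scale, from 16.7 ± 8.38 to 5.03 ± 3.56 CPM (SD, n = 8), and kept its call in 21 of 24 fits that each left out a sample. Uts2r, the receptor of the constrictor urotensin, had -1.54 at a level of 1.40 ± 0.674 CPM at 0 min, and kept its call in 15 of those 24 fits. Crhr2, the urocortin receptor, had log2 fold changes of -1.40 at 45 min (edgeR, adjusted p = 0.000266) and -0.94 at 24 h (adjusted p = 0.00242). Apln and Crhr2 thus both had lower levels at 24 h, but Crhr2 had passed the threshold by 45 min and Apln had not, and the difference between them was not tested. Ednra, the endothelin receptor of smooth muscle, rose by 0.84 at 24 h, from 28.6 ± 5.86 to 51.1 ± 19.2 CPM. Adora2b, an adenosine receptor, had 1.27 at 45 min and 1.02 at 24 h, and kept the former call in 9 and the latter in 13 of 24 fits without a sample. Without the 3 samples of few transcripts at 45 min, its 45 min value was 0.70 (edgeR, adjusted p = 0.325). Adora2a, also an adenosine receptor, had -0.56 at 45 min (edgeR, adjusted p = 0.3505), and -0.96 without those samples (adjusted p = 0.0148).

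Among 7 genes of other ligands and of enzymes that make or clear such mediators, 2 were higher and 1 was lower at 24 h, with a median log2 fold change of 0.31. Dbh, which makes noradrenaline, fell by 2.53 on the log2 scale, from 11.9 ± 6.27 to 2.07 ± 2.18 CPM (SD, n = 8; edgeR, adjusted p = 0.00198). Of the enzymes that make prostanoids, Ptgs1 rose by 0.89 and Ptgs2, the inducible form of it, by 1.78 at 24 h, and Tbxas1, which makes thromboxane, had 0.73 and did not pass (edgeR, adjusted p = 0.0816). Nts, which encodes the peptide neurotensin, had a log2 fold change of -0.04 at 24 h. Ece1, the enzyme that activates endothelin, had 0.31 (edgeR, adjusted p = 0.142). At 45 min, 0 of the 7 genes passed by edgeR's test, and Ptgs2 came nearest, with 1.65 (adjusted p = 0.0627).

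Vessel genes moved in both directions. Of the 14 endothelial cell markers, 4 were lower and 3 higher at 24 h than at 0 min, with a median log2 fold change of -0.38. Plxnd1, a semaphorin receptor of endothelial cells, fell by 0.88 on the log2 scale, from 370.5 ± 46.1 to 201.3 ± 32.8 CPM (edgeR, adjusted p = 1.63e-05). Pcdh12, a protocadherin of vessels, fell by 0.89. Bcl6b, a transcriptional repressor, had -0.98 at 45 min and -0.64 at 24 h. Tmem204 had -0.56 at 24 h, a call that held in 8 of 24 fits without a sample. Sema3g and Thbd, the cell surface thrombin receptor thrombomodulin, rose by 0.87 and 0.62. Clec14a had 0.42, a call that held in 7 of 24 such fits. At 45 min, 2 of the 14 were lower and 0 higher by edgeR's test, and Tcf15, with -0.72, kept that call in 4 of 24 such fits and lost it without the 3 samples of few transcripts (-0.70, edgeR, adjusted p = 0.154). Klf2, a factor that responds to blood flow, had -0.89 (adjusted p = 0.141), and without those samples it had -1.35 (adjusted p = 0.0195).

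The 13 genes of vessel sprouting and Notch signaling, a pathway that sets which endothelial cells become tip cells, were compared at both times. At 45 min, when Apln did not pass the threshold, 3 were lower and 0 higher by edgeR's test, with a median log2 fold change of -0.33 against 0.01 over all transcripts tested, and -0.25 without the 3 samples of few transcripts. Nrarp, a target and inhibitor of Notch, fell by 1.19, Hey1, a Notch target, by 0.95, and Dll1, a Notch ligand, by 0.82. Each of the 3 calls held in 24 of 24 fits without a sample and without the 3 samples of few transcripts. At 24 h, 2 were lower: Nrarp with -0.66 and Vash1, an inhibitor of vessel growth, with -0.72. No member was higher at 24 h by edgeR's test, and the median log2 fold change was 0.04. Figf, a vessel growth factor, had 1.10 (adjusted p = 0.0522), which passed the threshold in 7 of 12 other fits. Lfng, a modifier of Notch, had 0.91 and Jag1, a Notch ligand, 0.57, and neither passed. Of 3 genes known from tip cells, Esm1 had -1.33 at 45 min (edgeR, adjusted p = 0.0642) and -0.79 at 24 h (adjusted p = 0.152), Dll4 had -0.54 at 24 h (adjusted p = 0.191), and Pdgfb had 0.09 (adjusted p = 0.841). At 45 min, Esm1 passed the threshold in 4 of 12 other fits and in 3 of 24 fits without a sample. Esm1 was measured at 1.53 ± 0.463 CPM at 0 min, so its values are less precise than those of Apln.

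The 8 hypoxia-responsive genes did not move in 1 direction. At 24 h, 2 were higher and 3 lower, with a median log2 fold change of -0.29. Hmox1, heme oxygenase, rose by 2.93 on the log2 scale, from 12.2 ± 3.68 to 92.9 ± 56.3 CPM (edgeR, adjusted p = 2.13e-06). Bnip3, a mediator of mitophagy, rose by 1.16. Higd1a, a mitochondrial protein, fell by 0.89. Egln3, an oxygen sensor, had -0.66 and Pfkl, a glycolytic enzyme, had -0.43, calls that held in 15 and 6 of 24 fits without a sample. At 45 min, Ddit4, an inhibitor of mTOR signaling, rose by 1.29, from 69.3 ± 32.9 to 169 ± 54.2 CPM. The call was lost without the 3 samples of few transcripts detected (1.10, adjusted p = 0.122 by edgeR) and with only the samples of both time points compared (1.31, adjusted p = 0.0540). The listed transcript of Eno1, at 3.08 ± 0.633 CPM at 0 min, fell by 1.03. Across these lists, the 24 h calls of Crhr2, Uts2r, Bcl6b, Tmem204, Nrarp, Vash1, Higd1a, Egln3 and Pfkl were lost with library totals in place of TMM factors, while those of Ramp1, Dbh, Plxnd1 and Pcdh12 were kept.

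**Figure D3:**
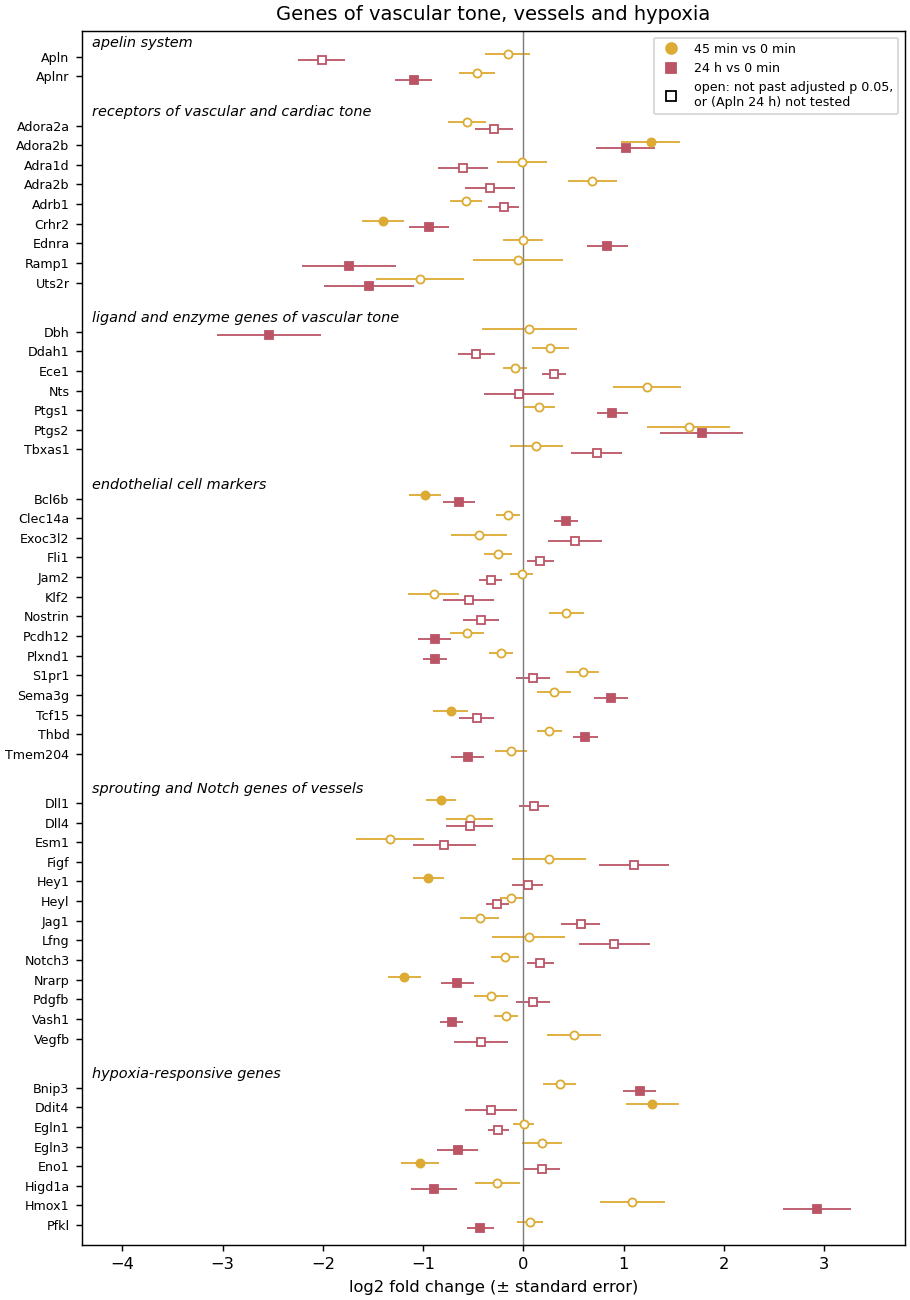
Log2 fold changes with standard errors of Apln, Aplnr and the tested members of 5 gene lists, at 45 min (circles) and 24 h (squares) against 0 min, 8 mice per time point. Filled symbols passed an adjusted p of 0.05 by edgeR's test. Apln lies at -2.01 at 24 h, drawn open because it was not tested there, while the lists hold filled squares on both sides of 0, from Dbh at -2.53 to Hmox1 at 2.93.

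Cell type markers moved over the same interval, and in bulk tissue fewer cells of a type and less RNA per cell cannot be told apart. All of the markers came from the study's list of changes over time, so markers that stayed level are missing. Sums of them, and ratios to those sums, thus do not measure the amount of a cell type. The summed level of the 14 endothelial markers was 983 to 1173 CPM at 0 min, 873.5 to 1091 at 45 min and 797 to 936 at 24 h, with no overlap between 0 min and 24 h. Plxnd1, which is also among the transcripts most like Apln, carried most of this difference. Without it, a choice made after seeing the data, the sum was 621 to 784 CPM at 0 min and 615 to 717 CPM at 24 h, ranges that overlapped. Per 1000 CPM of these markers, Apln stood at 30.5 ± 3.05 at baseline, 30.6 ± 6.04 after 45 min and 9.52 ± 5.19 after 24 h (SD over 8 mice). Per 1000 CPM of the sum without Plxnd1, the values were 46.0 ± 3.57, 44.8 ± 7.80 and 12.6 ± 7.49. These ratios hold the 24 h values by which Apln was chosen, and they are descriptions. The same ratio for Aplnr was 80.9 ± 17.0, 64.5 ± 16.6 and 47.5 ± 12.1, and here 0 min and 24 h overlapped.

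The summed level of 20 cardiomyocyte marker transcripts was 18370 to 26430 CPM at 0 min and 9857 to 16280 at 24 h. Of the 18 tested, 9 were lower and 1 higher at 24 h, with a median log2 fold change of -0.52. With library totals in place of TMM factors, 5 were lower, and Hcn4, Kcnj11, Tmod1 and Tnni3k lost their calls. Cardiac actin, Actc1, made up 66.9% ± 3.32 of that sum at 0 min and 42.8% ± 7.18 at 24 h (SD, n = 8) and fell by 1.38 on the log2 scale, while Actn2, the actinin of the Z disc, had -0.20 (edgeR, adjusted p = 0.346). All 14 leukocyte markers were higher at 24 h, and their sum was 52.1 to 104 CPM at 0 min and 80.5 to 339 CPM at 24 h. Without replicate 3 at 24 h, Cd68, Rac2 and Spi1 lost that call, and without replicate 2 at 24 h Cybb did. At 45 min, Ms4a6c had 0.93 (edgeR, adjusted p = 0.0745), and 1.08 without the 3 samples of few transcripts (adjusted p = 0.02815). Of 7 fibroblast markers, 4 were higher and 2 lower at 24 h, and of 6 adipocyte and lipid synthesis genes, 2 were higher and 0 lower by edgeR's test. Over 12 other fits, the higher count was 2 to 5 for the fibroblast markers and 0 to 4 for the adipocyte genes. With each sample left out in turn, it was 1 to 5 for the fibroblast markers and 1 to 3 for the adipocyte genes. Among these, the calls of Col6a3, Plin4 and Col3a1 held in 8, 12 and 13 of those 24 fits. No marker transcript was at 0 in all samples of a time point. The part of these shifts in the level of Apln was not tested.

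Between time points, Apln and the leukocyte markers moved in opposite directions, but among the 24 h mice the highest levels of both were found together. Replicate 3, with the highest Apln at 18.2 CPM, also had the highest leukocyte sum, at 339 CPM, and replicate 2, the next in both, had 11.4 CPM of Apln and a leukocyte sum of 294 CPM. Over the 8 mice at 24 h, Pearson's r between Apln and the leukocyte sum on log2 scales was 0.729, and 0.583 without replicate 3. With the endothelial sum it was 0.236, and -0.226 without replicate 3. These values were looked at after seeing the data and are descriptions with no test.

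**Figure D4:**
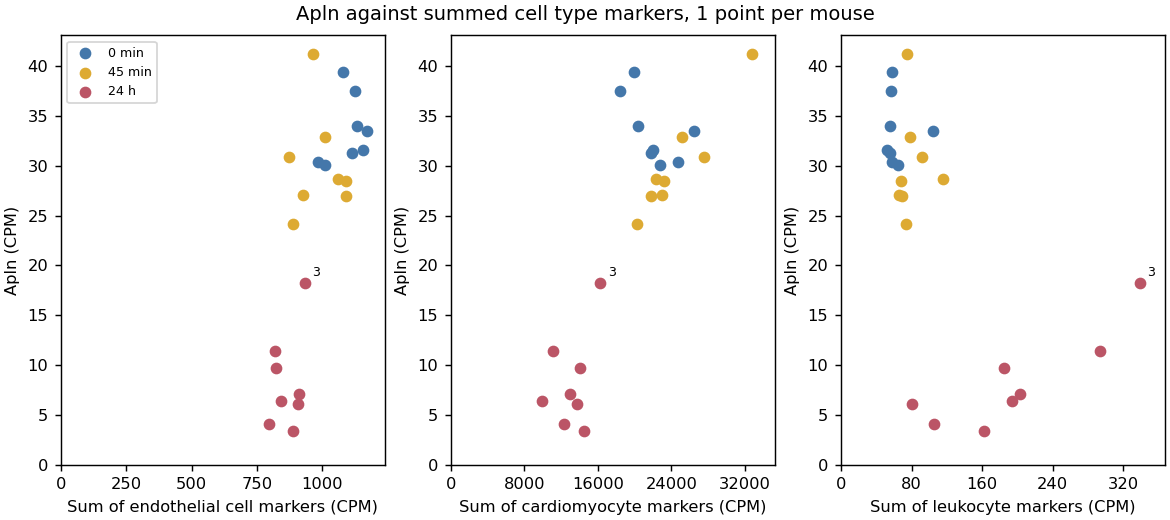
Apln in CPM against the summed CPM of endothelial (left), cardiomyocyte (middle) and leukocyte (right) markers, 1 point per mouse, with colors for the 3 time points and replicate 3 at 24 h labelled. The 24 h points have low Apln with endothelial sums of 797 to 936 CPM (Plxnd1 included), and within them the leukocyte panel runs from 80.5 CPM to 339 CPM in replicate 3.

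To find the transcripts most like Apln, Pearson's r on log2(CPM + 0.5) was computed over the 24 samples for every transcript tested. The 10 highest had r between 0.847 and 0.907, and all 10 were in the study's module M[2], the group of co-varying transcripts that also holds Apln. That module was built from co-variation over these same 24 samples, so the shared membership is no independent evidence. The 10 were Lrrc4b, Lmod3, Plxnd1, Dhrs7, Mmp15, Gm28979, Foxo6, Actc1, Klhdc8a and Ky. Lrrc4b (r = 0.907), a membrane protein of synapses, went from 32.1 ± 5.46 CPM at 0 min to 28.3 at 45 min and 11.9 at 24 h. Lmod3 (r = 0.905), an actin filament nucleator of muscle, went from 135 CPM to 57.3 CPM at 24 h. Foxo6, a forkhead factor, had a log2 fold change of -2.03 at 24 h and Klhdc8a had -1.87, close to the -2.01 of Apln. Within time points, the r of these 10 with Apln was lower, from 0.130 in Gm28979 to 0.621 in Dhrs7. Aplnr stood in place 37 by this measure. M[2] has 210 listed transcripts, and among those tested the median log2 fold change was -0.63 at 24 h and 0.07 at 45 min. Apln had the sixth largest fall at 24 h among them, a rank in the contrast by which it was chosen.

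The 5 most opposite transcripts were Gclm, Aox1, Spock2, Lcn2 and Cdo1, with r between -0.908 and -0.890. Gclm, a subunit of the enzyme that makes glutathione, went from 18.4 CPM at 0 min to 39.6 CPM at 24 h. Lcn2, the iron-binding acute phase protein lipocalin, went from 2.32 to 314 CPM. Within time points, r was weaker in all 5, at -0.714 in Aox1, -0.703 in Spock2 and -0.0914 in Lcn2.

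With the time point means removed, the 10 highest r were 0.748 to 0.809, and only 3 of these transcripts had a known symbol. These were Itgax (0.766), an integrin of dendritic cells and macrophages, Lrrc59 (0.755), a protein of the endoplasmic reticulum, and Cxcl12 (0.751), a chemokine of stromal and endothelial cells. In all 10, replicate 3 was the highest of the 24 h samples. Itgax had 12.04 CPM in replicate 3 at 24 h and 1.09 to 5.20 CPM in the other 24 h mice, and its r with Apln at 24 h was 0.868, or 0.733 without that replicate. Over all 24 samples, the r of Itgax with Apln was -0.535, since Itgax was higher at 24 h and Apln lower. Correlations across these samples share the library of each mouse and say nothing of shared control.

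**Figure D5:**
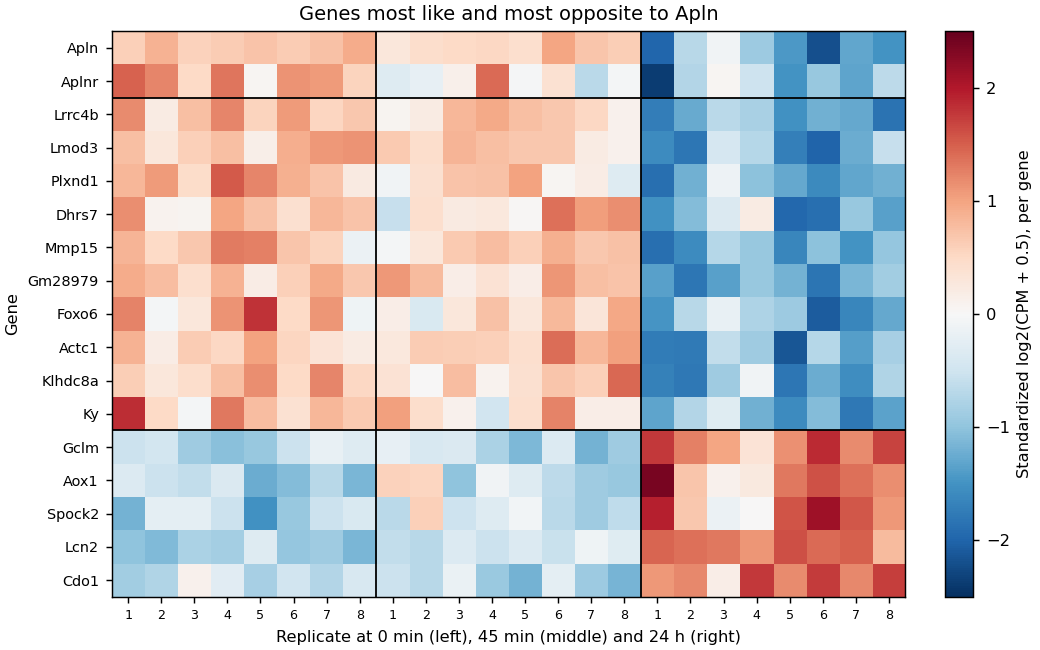
Log2(CPM + 0.5), standardized for each gene, in the 24 samples (columns, by replicate within each time point) for Apln and Aplnr, the 10 transcripts most like Apln and the 5 most opposite (rows). Rows of the first and middle blocks are mostly blue (low) at 24 h and the last 5 mostly red (high), and Aplnr is mixed at 45 min, where replicate 4 is high.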

How the data were processed

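The left ventricles of 24 mice were measured by mRNA sequencing with a directional kit. The authors trimmed reads with cutadapt 1.9.1, mapped them to mm10 with TopHat2 2.1.0 (Bowtie2 2.2.9) and counted them with HTSeq 0.6.0. The deposited values are raw counts per UCSC transcript, without normalization. The counting mode, its strand setting and the annotation release are not given in the sources used here, so how reads shared between transcripts were treated is unknown. The 1 row without a name was left out.

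Tests were run in edgeR 4.0.16 under R 4.3.3 (filterByExpr with a minimum of 10 counts and 15 in total, TMM normalization, quasi-likelihood test, time as the only factor, all 24 samples). The standard error is the log2 fold change divided by the square root of F. Benjamini-Hochberg adjustment covered 8940 transcripts, and the threshold on adjusted p was 0.05. The test was checked on simulated data. Alternatives used DESeq2 1.42.0 and limma 3.58.1. Correlations took the levels of transcripts as log2(CPM + 0.5) and marker sums as log2 CPM. The number of transcripts detected, the total count and the share of uc012ath.2 were not transformed. Permutations (100000) were used only for the 4 relations of Apln within time points. Totals of 9887957 to 14091629 counts set the precision, and none of the 84 pairs of samples within a time point agreed within counting noise (chi-square per degree of freedom at least 8.64). Named genes are Apln, Aplnr, the members of the gene lists, and the 10 transcripts most like Apln, the 5 most opposite and the 10 most like within time points. Apln and the lists were chosen with earlier results of these data known. One gene (1 listed transcript) is not reported here and was left out of its list. Symbols were taken from the study's list of changed transcripts, for 1209 of them. Surgeon and library pool were not used. The sequence was read from the GRCm38 genome with GENCODE M21.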

Additional observations from a re-analysis of the deposited data

Results flagged for a closer look

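In 33 sets of 8 samples, a value was called distant when its gap to the nearest other sample, as a share of the range, passed Dixon's 95% critical value for 8 samples, and 4 values did. Chance gives about 1 in 20. Aplnr was 106.3 CPM in replicate 4 at 45 min, against 70.0 CPM in the next sample. The leukocyte marker sum was 104.0 CPM in replicate 5 at 0 min, against 65.2 CPM in the next. The sum of adipocyte and lipid synthesis genes was 689.6 CPM in replicate 6 at 24 h, the sample with the lowest Apln, against 510.4 CPM in the next. The sum of ligand and enzyme genes of vascular tone was 132.1 CPM in replicate 4 at 0 min, against 114.3 CPM in the next. No value of Apln itself was distant by this measure.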

How the results depend on the processing

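Over 12 other fits, 2 of them chosen after seeing the data, the log2 fold change of Apln lay between -2.19 and -1.81 at 24 h against 0 min and between -0.32 and -0.12 at 45 min against 0 min, and without each sample in turn between -2.32 and -1.92 and between -0.22 and -0.10. That of Aplnr from 0 min to 24 h passed the threshold in all of these fits, between -1.23 and -0.92. From 45 min to 24 h, Aplnr did not pass it without a filter on low counts (-0.62, edgeR adjusted p = 0.0787), with only the samples of the 2 time points (-0.64, adjusted p = 0.0518) or with library totals in place of TMM factors (-0.33, adjusted p = 0.284), and without each sample it lay between -0.76 and -0.51. Of all transcripts, 65 passed at 45 min against 0 min, 100 with DESeq2 and 102 with a covariate for transcripts detected. At 24 h against 0 min, 687 passed, 1044 with that covariate and 1064 without the 45 min samples of few transcripts. From 45 min to 24 h, 813 passed, 1310 with library totals, and 524 to 1668 without each sample (the ends without replicates 2 and 4 at 24 h). The r of Apln with the share of uc012ath.2 within time points was -0.235 to 0.00994 without each sample. The causes were not tested.

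Replicate numbers do not pair the mice: same-numbered samples had correlations from -0.541 to 0.583, with 13 of 24 over 0.1 and 3 of 24 highest for their own number. With the replicate block, the log2 fold change of Apln was -2.12 at 24 h and -0.16 at 45 min against 0 min, 617 and 49 transcripts passed, and from 45 min to 24 h 656 did. The depth limits the lowest Apln value, of 41 counts, to a 95% counting interval of 29.4 to 55.6.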
